A study of Mus musculus with 6 samples.

Results

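Ackr3, Cxcr4 and Cxcl12 form one of the best known receptor and ligand groups of blood formation, and their levels were followed in red cell precursors of the mouse fetal liver. Cxcl12 is a chemokine made mainly by stromal cells of blood-forming tissue. Cxcr4 is its signalling receptor, which acts through inhibitory G proteins and holds blood progenitors near the cells that make Cxcl12. Ackr3, an atypical chemokine receptor formerly called Cxcr7, binds Cxcl12 and Cxcl11 without the usual G protein signal, recruits arrestins and takes the chemokine into the cell.

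The 3 genes were chosen by their place around Ackr3, which was picked because its difference between the sorted subsets S3 and S1 was among the largest rises of these same arrays. Every probe set whose only gene symbol was one of the 3 was used, which gave 5 probe sets of 45101 and 3 genes of 18193. The differences of these genes between S3 and S1 are therefore a description, and no p-value is given for them.

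S3 and S1 cells were sorted from dissociated whole livers of Balb/C embryos on stains for Ter119, which marks maturing red cells, for the transferrin receptor CD71, and for other lineages. S3 is the more mature subset and S1 the less mature one, and each had 3 arrays from cells sorted on separate days. The stage label gives embryonic day 13.5 for S3 and 12.5 for S1, whereas the source label gives 13.5 for both, so maturation and embryo age cannot be told apart. No genetic change or treatment is named for either subset. The arrays read RNA of pooled sorted cells, in which fewer cells of a type and less RNA per cell cannot be told apart.

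Values are the deposited log2 signals, scaled by the authors to 3 reference probe sets. The 6 array medians lay between 1.83 and 2.94, and background, taken as the 95th percentile of 27 bacterial control probe sets of each array, lay between 1.01 and 1.74. In S3 replicate 2 and in S1 replicates 1 and 2 the 5' actin probe set lay 2.08 to 2.59 log2 units under the 3' one, and in the other arrays 0.45 to 0.56 units under it. The first kind are called short arrays and the second kind long arrays. Of 8 red cell markers with a probe set, all 8 were above background on all 6 arrays. In S3, 4 rose (limma adjusted p under 0.05), where 2.53% of all genes tested did: Slc4a1, Alas2, Hbb-bh1 and Epb42. The other 4, Klf1, Epor, Tfrc and Gata1, were not called (log2 differences 0.44, 0.90, 0.21 and -0.12).

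Ackr3 gave a clear signal in S3 and lay at or near background in S1. Its single probe set, 1417625_s_at, read 8.67, 7.10 and 7.52 in S3 replicates 1, 2 and 3, and 1.19, 1.58 and -0.04 in S1 replicates 1, 2 and 3. Every S3 array lay far above background and above every S1 array, while 2 of the 3 S1 arrays were above background by a small margin. The suffix of the probe set marks probes that can match more than 1 transcript.

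The mean log2 signal of Ackr3 was 7.76 ± 0.81 in S3 and 0.91 ± 0.85 in S1 (SD, n = 3 arrays each), a difference of 6.85 ± 0.61 (SE from limma). With every value under background raised to background, the difference was 6.26, or 76.5-fold. Among 11959 genes tested this difference ranked 5 from the top, just under Krt15 (6.89) and above Tnfrsf13c (6.32). The difference was 8.13 between the long arrays (2 of S3, 1 of S1) and 5.71 between the short arrays (1 of S3, 2 of S1), so it was found within either kind.

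Cxcr4, the signalling receptor, stayed close to background in both subsets. Its single probe set, 1448710_at, read 1.56, 1.06 and 2.14 in S3 replicates 1, 2 and 3, and 2.53, -1.62 and 1.89 in S1 replicates 1, 2 and 3. The subsets overlap, and 2 of 3 arrays were above background in each of them. The mean was 1.59 ± 0.54 in S3 and 0.93 ± 2.23 in S1 (SD, n = 3 each), a log2 difference of 0.66 ± 1.08 (SE). That difference turned to -0.62 without S1 replicate 2, the lowest reading, and was -0.21 with values raised to background. These arrays therefore give no direction for Cxcr4, whose standard error is larger than its difference.

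Cxcl12, the ligand, was also at or near background, and its 3 probe sets did not run the same way. Probe set 1448823_at read 1.83, 0.84 and 2.56 in S3 replicates 1, 2 and 3, and -0.75, -1.74 and 0.95 in S1 replicates 1, 2 and 3. Its S3 mean was 1.74 ± 0.86 and its S1 mean -0.51 ± 1.36 (SD, n = 3 each), and its highest S1 reading lay above its lowest S3 reading. The difference of 2.25 shrank to 0.53 with values raised to background, since no S1 array and only 2 S3 arrays were above it.

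The other Cxcl12 probe sets were no brighter. Probe set 1439084_at read -0.09, -0.49 and 0.27 in S3 replicates 1, 2 and 3, and -0.40, 1.39 and 2.92 in S1 replicates 1, 2 and 3, a difference of -1.41, with above-background readings in S1 replicates 2 and 3 alone. Probe set 1417574_at read 2.08, -2.36 and 0.84 in S3 replicates 1, 2 and 3, and 0.05, -1.47 and 0.74 in S1 replicates 1, 2 and 3, a difference of 0.41. The direction of this probe set turned on single arrays, with -0.53 without S3 replicate 1, -0.21 without S1 replicate 2 and 1.69 without S3 replicate 2, and it was -0.46 with short and long arrays as a block. One of these 3 S3 arrays and 0 of 3 S1 arrays were above background. Averaged over its 3 probe sets, Cxcl12 differed by 0.42. None of the 3 passed the filter on dim probe sets (a mean above 1.12), so Cxcl12 was not tested.

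**Figure D1:**
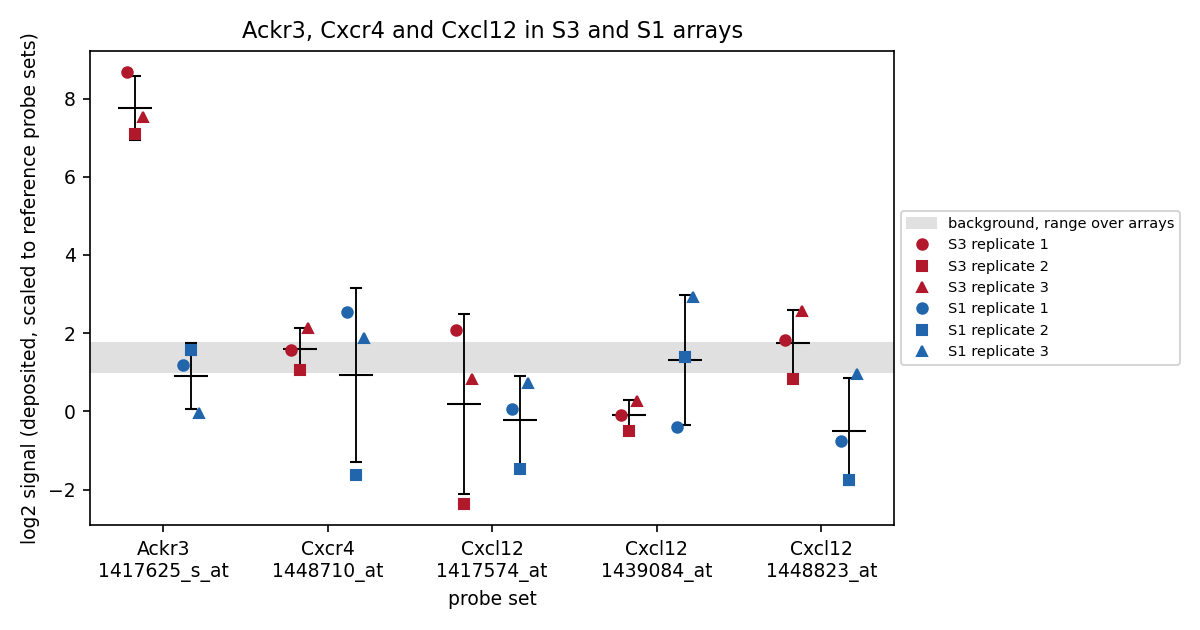
Log2 signal of the 5 probe sets of Ackr3, Cxcr4 and Cxcl12 (vertical axis) on each S3 array (red) and S1 array (blue), with the mean and SD of each subset in black and the range of array backgrounds in grey. Ackr3 lies between 7.10 and 8.67 on the S3 arrays and between -0.04 and 1.58 on the S1 arrays, while the subsets overlap for the other 4 probe sets.

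Of the 2 members that passed the filter, the fit over all genes called 1, Ackr3, as higher in S3, where 2.53% of all 11959 genes were called higher and 12.8% lower (15.3% in all). All S3 arrays lay above all S1 arrays for 5.81% of genes and below them for 29.5%. Ackr3 was chosen for this difference, so nothing is read from its call. With median centring 478 genes were called higher and 972 lower, and with quantile normalization 698 and 1129, against 302 and 1533 at the deposited scale. Genes on the whole were lower in S3 at the deposited scale, by a median log2 difference of -0.33, and relative to that median Ackr3 differed by 7.18.

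Both receptor genes lie on mouse chromosome 1. The 250 bases before their RefSeq gene starts are shown as background, since the profiles were made for work on DNA demethylation. A link between these stretches and the signals of the genes was not tested. Capitals mark CpG dinucleotides, the sites where vertebrate DNA is methylated, and the arrays themselves read neither methylation nor promoters. The Ackr3 stretch is chr1:90203730-90203979 on the plus strand and the Cxcr4 stretch chr1:128592300-128592549 on the minus strand (GRCm38.p6, sequence from RefSeq).
Ackr3: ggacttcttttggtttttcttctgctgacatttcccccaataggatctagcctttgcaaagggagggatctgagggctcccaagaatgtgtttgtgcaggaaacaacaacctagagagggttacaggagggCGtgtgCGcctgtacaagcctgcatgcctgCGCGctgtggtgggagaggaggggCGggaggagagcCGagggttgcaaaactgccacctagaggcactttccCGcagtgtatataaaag
Cxcr4: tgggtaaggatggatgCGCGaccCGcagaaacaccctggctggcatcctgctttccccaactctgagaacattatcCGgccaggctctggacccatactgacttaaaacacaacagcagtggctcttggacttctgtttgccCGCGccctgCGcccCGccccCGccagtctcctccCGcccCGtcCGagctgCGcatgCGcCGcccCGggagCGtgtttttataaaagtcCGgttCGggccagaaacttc

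The Ackr3 stretch held 7 CpG, close to the median of 6 over 32851 RefSeq promoter stretches of the same length, and 53.7% of those held fewer. The Cxcr4 stretch held 19, more than 80.3% of stretches, and that of Cxcl12 on chromosome 6 held 14, more than 70.6%. On either strand, the letters TATAAA, the core of a TATA box, occurred in both receptor stretches, starting 8 bases before the gene start of Ackr3 and, at the nearest of a pair that overlap on opposite strands, 30 bases before that of Cxcr4, and in 12.4% of all stretches. Neither AGATAA nor TGATAA, letters that GATA factors bind, occurred in any of the 3 stretches on either strand. They occurred in 10.0% and 7.9% of all stretches. CANNTG, the E box letters, occurred in none of the 3 and in 66.2% of all stretches. CACCC, letters bound by Klf1, occurred in the stretches of Cxcr4 and Cxcl12 and in 52.0% of all stretches.

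Among the other chemokine receptors, 2 of the 9 tested rose in S3, none fell and 7 were not called (3 of the 9 had an unadjusted p under 0.05), where 2.53% of all genes rose and 12.8% fell. Of 21 listed receptors 19 had a probe set, and 8 were not above background on any array, among them Ccr1, Ccr2 and Cxcr2. The median log2 difference of the 9 was 0.03, against -0.33 over all genes.

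Ackr1, the Duffy blood group antigen, which binds many chemokines on the red cell surface without signalling, rose the most. It read 9.17, 7.70 and 9.15 in S3 replicates 1, 2 and 3, and 3.35, 3.83 and 4.72 in S1 replicates 1, 2 and 3. Above background on all 6 arrays, it differed by a log2 value of 4.70 ± 0.56 (SE), or 26.1-fold (limma adjusted p = 0.00359), and was called in all 15 alternative analyses.

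Ccrl2, a non-signalling relative of the atypical receptors that binds the attractant chemerin, rose as well. It read 6.72, 4.83 and 6.55 in S3 replicates 1, 2 and 3, and 3.12, 0.01 and 2.91 in S1 replicates 1, 2 and 3, with no overlap between the subsets. The log2 difference was 4.02 ± 0.94 (SE, limma adjusted p = 0.0288). This call was lost without an intensity trend (adjusted p = 0.0511) and without S3 replicate 1 (adjusted p = 0.0944), S3 replicate 3 (0.100), S1 replicate 1 (0.0581) or S1 replicate 2 (0.0587), with limma adjusted p from 0.00204 to 0.100 over the 15 alternatives.

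The remaining atypical receptors were not called. Ackr4, a scavenger of homeostatic CC chemokines, read 5.74, 4.74 and 5.50 in S3 replicates 1, 2 and 3, and 6.74, 6.40 and 7.64 in S1 replicates 1, 2 and 3, and was not called (log2 difference -1.60 ± 0.47, limma adjusted p = 0.0606). It was called lower with the kind of array, short or long, as a block (-1.93, limma adjusted p = 0.000123). Ackr2, a scavenger of inflammatory CC chemokines, differed by -0.47 ± 1.06 (limma adjusted p = 0.834), and its subsets overlap. Ackr4 and Ackr2 fall outside the rule for named genes and were named after their values were seen.

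**Figure D2:**
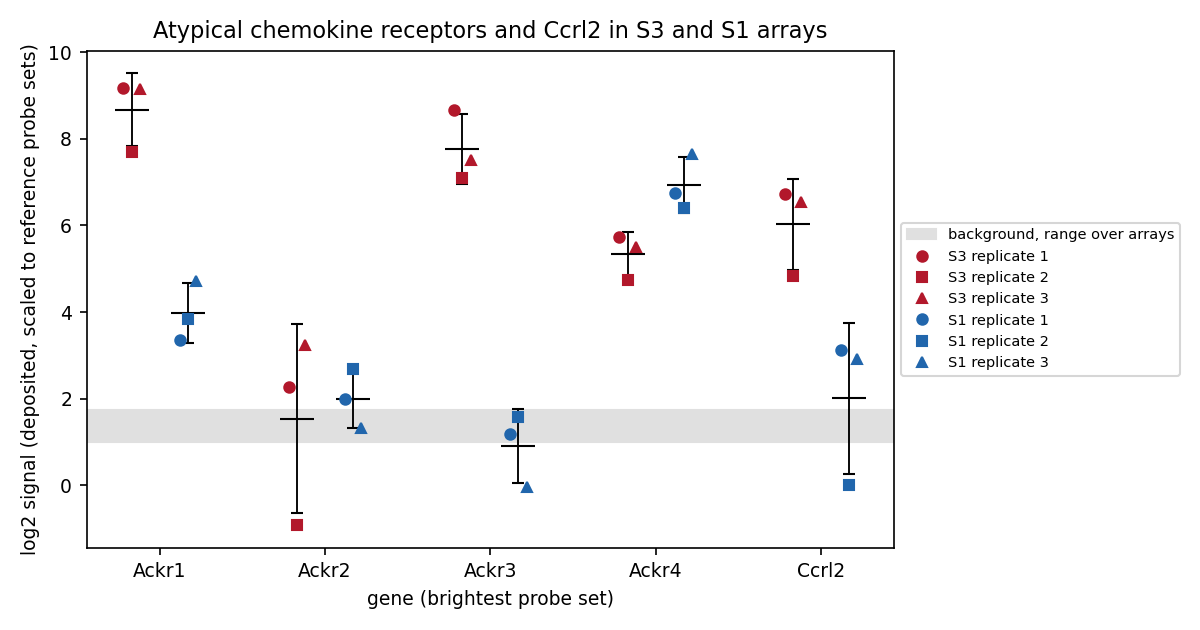
Log2 signal of the 4 atypical chemokine receptors and Ccrl2 (vertical axis) on each S3 array (red) and S1 array (blue), with the mean and SD of each subset in black and the range of array backgrounds in grey. Ackr1, Ackr3 and Ccrl2 are higher on every S3 array than on any S1 array, Ackr4 is lower on every S3 array, and Ackr2 overlaps.

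Of 14 listed ligands, partners and proteases, 6 were tested, 3 fell, 0 rose and 3 were not called, where 12.8% of all genes fell and 2.53% rose, with a median log2 difference of -0.76. Dpp4, the surface protease that inactivates Cxcl12 by trimming its amino end, fell the most: it read 1.86, 1.67 and 1.99 in S3 replicates 1, 2 and 3, and 4.33, 6.38 and 5.20 in S1 replicates 1, 2 and 3 (-3.46 ± 0.58 (SE), limma adjusted p = 0.00974). The Dpp4 call held in all 14 alternatives that gave it a value. A dimmer probe set of Dpp4 (mean 1.30) differed by -1.25 ± 0.78 and was not called (limma adjusted p = 0.425 over probe sets).

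Calcrl, the receptor for adrenomedullin, a peptide that Ackr3 also binds, averaged 5.46 ± 0.08 in S3 and 7.26 ± 0.22 in S1 (SD, n = 3 each, log2 difference -1.80 ± 0.32, limma adjusted p = 0.0117). Its partner Ramp2 was not above background on any array, nor were Ramp3 and the second Ackr3 ligand, Cxcl11. Mif, a cytokine that binds Cxcr4, Ackr3 and Cd74, averaged 9.17 ± 0.25 in S3 and 10.07 ± 0.08 in S1 (log2 difference -0.90 ± 0.16, limma adjusted p = 0.0110). The Calcrl call was lost without S3 replicate 1 (0.0508), S3 replicate 3 (0.0513) or S1 replicate 2 (0.0589), with limma adjusted p from 0.000146 to 0.966 over all alternatives. The Mif call was lost with median centring (0.280), without an intensity trend (0.0634) and without S1 replicate 1 (0.0535). The limma adjusted p of Mif ran from 0.000538 to 0.638 over all alternatives. Its difference was 0.44 when its dimmer probe sets were averaged in.

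None of the 6 tested among the other CXC chemokines was called (2 had an unadjusted p under 0.05 in limma). The platelet chemokines Ppbp and Pf4 had the smallest p. Ppbp read 4.98, 3.59 and 5.32 in S3 replicates 1, 2 and 3, and 3.28, 2.17 and 2.97 in S1 replicates 1, 2 and 3 (log2 difference 1.82 ± 0.59, limma adjusted p = 0.0811). Pf4 averaged 7.80 ± 0.06 in S3 and 5.96 ± 1.42 in S1 (1.84 ± 0.67, limma adjusted p = 0.111). All S3 arrays lay above all S1 arrays for either chemokine, as they did for 5.81% of all genes. Ppbp was called higher in 5 of 15 alternatives, with median centring (0.0337), quantile normalization (0.0339), the kind of array as a block (0.0219), the replicate number as a block (0.0368) and without S3 replicate 2 (0.0286), with limma adjusted p up to 0.243. Pf4 was called higher in 3 of 15, with median centring (0.0415), quantile normalization (0.0467) and the kind of array as a block (0.0296), with limma adjusted p up to 0.234. The summed linear signal of 4 megakaryocyte markers was 113 to 119 in S3 and 53.5 to 55.6 in S1, and the part of megakaryocytes in these values was not tested.

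Of 19 tested receptor kinases, arrestins and sorting proteins, which act on activated receptors, 2 rose, 1 fell and 16 were not called, a count near the 15.3% of all genes called, with a median log2 difference of -0.23. Arrb1, beta-arrestin 1, the adaptor class through which Ackr3 works, read 9.45, 9.15 and 9.43 in S3 replicates 1, 2 and 3, and 8.37, 8.22 and 8.80 in S1 replicates 1, 2 and 3 (0.88 ± 0.21 (SE), limma adjusted p = 0.0310). Its relative Arrb2, named after its values were seen, averaged 5.30 ± 0.75 in S3 and 6.06 ± 0.62 in S1 and was not called (limma adjusted p = 0.412). Arrb2 was called lower with the kind of array as a block (-1.10, limma adjusted p = 0.0129).

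Grk5, a kinase that phosphorylates active receptors so that arrestins bind, read 6.22, 5.32 and 6.21 in S3 replicates 1, 2 and 3, and 3.16, 3.35 and 4.42 in S1 replicates 1, 2 and 3 (2.28 ± 0.50 (SE), limma adjusted p = 0.0242). Rab4a, a small GTPase of fast recycling from early endosomes to the surface, fell: it averaged 4.32 ± 0.36 in S3 and 7.50 ± 0.34 in S1 (-3.18 ± 0.38 (SE), limma adjusted p = 0.00368). A further probe set of Rab4a differed by -3.10 ± 0.40 (limma adjusted p = 0.00640 over probe sets), and the Rab4a call held in all 15 alternatives. The calls of Arrb1 and Grk5 were each lost without S3 replicate 1 (0.112 and 0.0896), S3 replicate 3 (0.117 and 0.0978), S1 replicate 1 (0.104 and 0.0900) or S1 replicate 2 (0.104 and 0.0884). Without an intensity trend the Arrb1 call was lost as well (0.0844). Over the 15 alternatives the limma adjusted p ran from 0.000819 to 0.117 for Arrb1 and from 0.000442 to 0.0978 for Grk5.

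Of 23 tested genes downstream of a G protein signal such as that of Cxcr4, 3 fell, 0 rose and 20 were not called (10 of the 23 had an unadjusted p under 0.05), a count near the shares of all genes called lower (12.8%) and higher (2.53%), with a median log2 difference of -0.29. Vav1, an exchange factor for Rac GTPases in blood cells, read 0.82, 2.92 and 2.86 in S3 replicates 1, 2 and 3, and 6.46, 5.33 and 6.23 in S1 replicates 1, 2 and 3 (-3.81 ± 0.67 (SE), limma adjusted p = 0.0115). The Vav1 call was lost without S1 replicate 1 (0.0576) and with the mean over its probe sets (0.0811). Its limma adjusted p ran from 0.000641 to 0.0811 over all alternatives. A dimmer probe set of Vav1 (mean 1.66) differed by -0.36 ± 0.76 and was not called (limma adjusted p = 0.86 over probe sets). Ptk2b, a kinase of cell adhesion and motility also called Pyk2, differed by -1.95 ± 0.43 (limma adjusted p = 0.0241), and Gnb4, a G protein beta subunit, by -1.53 ± 0.33 (limma adjusted p = 0.0224). The Ptk2b call was lost without S3 replicate 1 (0.0842), S3 replicate 3 (0.0906), S1 replicate 1 (0.0926) or S1 replicate 3 (0.0613), and that of Gnb4 without S3 replicate 1 (0.0532), S3 replicate 3 (0.0857), S1 replicate 1 (0.0823) or S1 replicate 2 (0.0930) and with median centring (0.0741). With quantile normalization the Gnb4 call was lost as well (0.108). Over all 15 alternatives the limma adjusted p ran from 0.000832 to 0.225 for Ptk2b and from 0.000739 to 0.356 for Gnb4.

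None of the 3 inhibitory G protein subunits tested, through which Cxcr4 signals, was called. Gnai2 averaged 8.99 ± 0.27 in S3 and 8.75 ± 0.44 in S1 (log2 difference 0.25 ± 0.27, limma adjusted p = 0.623), and Gnai3 8.02 ± 0.48 in S3 and 9.16 ± 0.46 in S1 (-1.13 ± 0.33, limma adjusted p = 0.0588). Gnai3 was called lower with the kind of array as a block (-1.39, limma adjusted p = 4.93e-05). Gnai1 was near background, on 2 of 3 arrays above it in either subset, and differed by 0.17 ± 0.83 (limma adjusted p = 0.928). These 3 genes were named after their values were seen.

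Adhesion receptors that act beside Cxcr4 in the blood-forming niche included 2 that fell, of 7 tested, with 0 risers, 5 not called and a median log2 difference of -1.46, where 12.8% of all genes fell. Cd44, the hyaluronan receptor, read 6.32, 6.45 and 6.40 in S3 replicates 1, 2 and 3, and 9.31, 9.21 and 9.21 in S1 replicates 1, 2 and 3 (-2.86 ± 0.23 (SE), limma adjusted p = 0.00252). Itga5, the alpha chain of a fibronectin receptor, averaged 3.33 ± 0.97 in S3 and 6.82 ± 0.19 in S1 (-3.49 ± 0.54, limma adjusted p = 0.00759). The Itga5 call was lost with the mean over its probe sets (-2.28, limma adjusted p = 0.0613), the highest adjusted p of its 15 alternatives, the lowest being 2.47e-05. Itga4, the alpha chain of the Vcam1 receptor, named after its values were seen, averaged 9.90 ± 0.47 in S3 and 9.29 ± 0.68 in S1 and was not called (limma adjusted p = 0.332).

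Of 7 tested genes reported to regulate Cxcr4 or Ackr3, 3 fell, 0 rose and 4 were not called, with a median log2 difference of -0.59, where 12.8% of all genes fell. Nr3c1, the glucocorticoid receptor, differed by -1.24 ± 0.25 (limma adjusted p = 0.0171), Yy1, a repressor of CXCR4 in human cells, by -0.53 ± 0.11 (limma adjusted p = 0.0174), and Hif1a, the oxygen-sensing factor that raises CXCR4 in human cells, by -0.80 ± 0.17 (limma adjusted p = 0.0197). Hic1, a repressor of human ACKR3, was not above background on any array. All 3 calls were lost with median centring (0.0557, 0.654 and 0.331 for Nr3c1, Yy1 and Hif1a) and without S3 replicate 1 (0.0532, 0.0624 and 0.0646), S1 replicate 1 (0.0678, 0.0741 and 0.0576) or S1 replicate 2 (0.0612, 0.0688 and 0.0852), and those of Yy1 and Hif1a also without S3 replicate 3 (0.0504 and 0.0622). The Yy1 and Hif1a calls were further lost with quantile normalization (0.107 and 0.113) and without an intensity trend (0.164 and 0.0737). Over all alternatives the limma adjusted p ran from 4.93e-05 to 0.292 for Nr3c1, from 0.00122 to 0.654 for Yy1 and from 0.000842 to 0.904 for Hif1a.

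**Figure D3:**
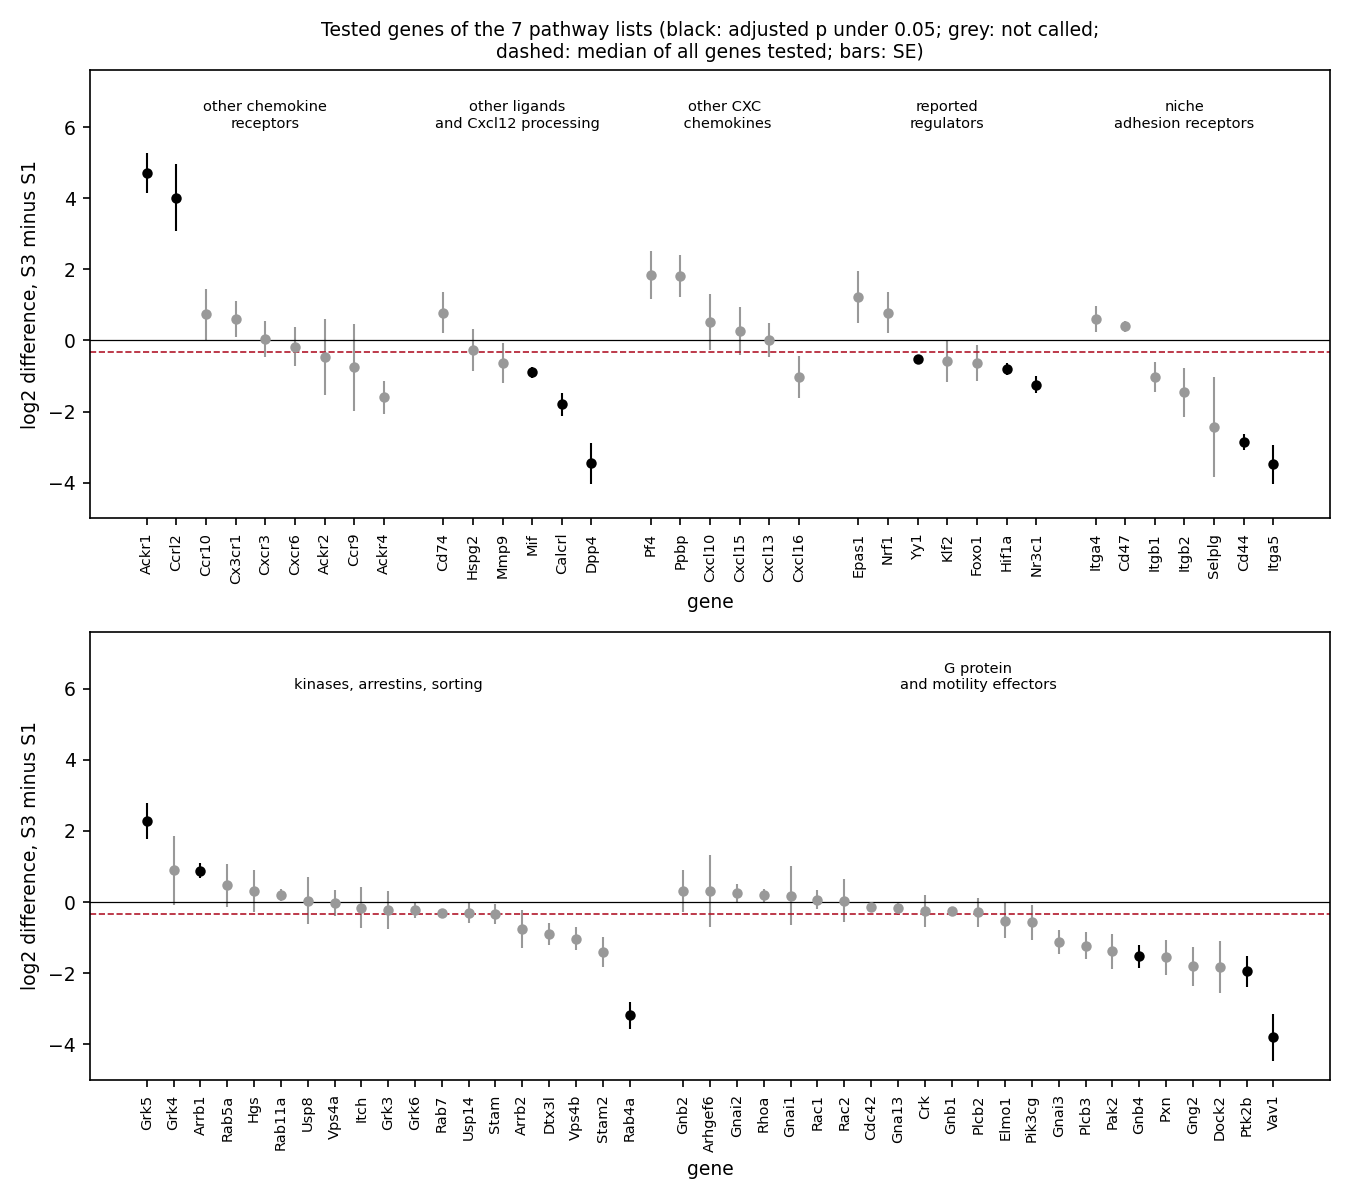
Log2 difference between S3 and S1 with its SE (vertical axis) for the 77 tested genes of the 7 pathway lists, sorted within each list; black points were called by limma and grey points were not. Ackr1 and Ccrl2 stand highest, at 4.70 and 4.02, Vav1, Itga5 and Dpp4 lowest, at -3.81, -3.49 and -3.46, and the dashed line marks the median of all genes, -0.33.

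Over the 7 lists together, 4 of 77 tested genes rose and 12 fell, or 20.8% called, beside 15.3% of all genes, and the median log2 difference was -0.27 beside -0.33. With short and long arrays as a block 7 rose and 31 fell, where 5.81% of all genes were called higher and 41.2% lower. The 16 calls became 7 without S3 replicate 1, 8 without S3 replicate 3, 6 without S1 replicate 1 and 8 without S1 replicate 2.

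Endothelial and stromal cells can carry these receptors or make Cxcl12, and B cell precursors carry Cxcr4. Of 8 endothelial markers none was above background on all 6 arrays, Tek and Emcn were on no array, and the summed linear signal was 11.3 to 22.3 in S3 and 17.1 to 23.9 in S1. That of 9 stromal markers was 32.8 to 48.8 in S3 and 32.6 to 48.2 in S1. Among these, Col1a1 and Col1a2 were above background on all 6 arrays and Des on no array. The summed linear signal of 4 B cell markers was 1.41 to 3.63 in S3 and 5.00 to 15.8 in S1. Cd79b and Pax5 were above background on no array, and none of these 4 passed the filter. The B cell range was lower in S3 but rests on these dim markers, and the endothelial and stromal ranges overlap.

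Megakaryocyte and hepatoblast markers were present on all arrays. All 4 megakaryocyte markers with a probe set were above background on all 6 arrays. Vwf, which megakaryocytes and endothelium make, rose (2.72 ± 0.60 (SE), limma adjusted p = 0.0244), where 2.53% of all genes were called higher. The other 3 were not called. Gp9 differed by 1.74 (limma adjusted p = 0.0798), Gp1bb by 0.32 (limma adjusted p = 0.836) and Itga2b by -0.31 (limma adjusted p = 0.763). Of 7 hepatoblast markers listed, Trf (transferrin) had no probe set under its own symbol. Trh, a different gene, was taken in its place through a synonym. The summed linear signal of the other 6 and Trh was 255 to 952 in S3 and 273 to 328 in S1. Trh averaged -0.56 in S3 and -0.64 in S1 and was not tested. The other 6 were above background on all arrays, with 0 called and a median log2 difference of 1.04. With the kind of array as a block, 2 hepatoblast markers were called higher, where 5.81% of all genes were. They were Ttr (1.10, limma adjusted p = 0.00816) and Apoa2 (0.97, limma adjusted p = 0.0493). Alb (0.80) and Afp (0.28) went the same way with that block and were not called. Apoa1 (-0.07) and Ahsg (-0.53) went the other way and were not called. The summed linear signal of 8 macrophage markers was 34.3 to 87.9 in S3 and 25.9 to 117 in S1. Cd68 and C1qb were above background on all 6 arrays, and Adgre1 and C1qc on no array. The summed linear signal of 6 granulocyte markers was 10.9 to 140 in S3 and 18.4 to 97.4 in S1. Among them Prtn3 fell (-2.94 ± 0.54 (SE), limma adjusted p = 0.0127). S100a8 (1.57 ± 1.33, limma adjusted p = 0.515) and S100a9 (2.46 ± 2.20, limma adjusted p = 0.541) went the other way and were not called. The median log2 difference of the tested granulocyte markers was 0.50. Ctsg and Ltf were above background on no array. Ttr, Apoa2, Alb, Afp, Apoa1, Ahsg, Vwf, Gp9, Gp1bb, Itga2b, Prtn3, S100a8 and S100a9 were named after their values were seen. The part of these cells in the Ackr3 values was not tested.

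The 5 genes whose pattern over the 6 arrays was most like that of Ackr3 were Dennd2c (Pearson's r = 0.996), Cmas (0.994), Smim3 (0.991), Cgn (0.990) and Npas2 (0.990). Dennd2c encodes an activator of Rab GTPases, Cmas the enzyme that activates sialic acid, Smim3 a small membrane protein, Cgn the tight junction protein cingulin and Npas2 a clock transcription factor. They differed between S3 and S1 by log2 values of 1.98, 1.27, 1.25, 1.99 and 0.86, all smaller than that of Ackr3. All were higher on every S3 array than on any S1 array, as were 5.81% of all genes. A likeness this close to Ackr3 largely ensures such a split. A further probe set of Cgn differed by -1.55, and the mean over both by 0.22. Npas2 was not called (limma adjusted p = 0.241). A further probe set of Npas2, above background on no array, differed by -0.62. The 6 points share the split into subsets by which Ackr3 was chosen.

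The 5 genes most like Cxcr4 were Arc (0.987), 4930542N06Rik (0.982), Ppfia3 (0.979), Rhox9 (0.978) and 1700073E17Rik (0.977). All 5 were dim, with mean log2 signals between 1.22 and 2.73. Each of them, like Cxcr4, read lowest in S1 replicate 2, and their log2 differences between the subsets were 0.19 to 0.68.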

How the data were processed

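RNA of each sorted sample was amplified with Ovation reagents and hybridised to 1 Affymetrix Mouse Genome array. Per the series' design text and the submitters' processing notes, the authors computed MAS5 signals and normalized them to 18S, Gapdh and beta-actin probe sets. The deposited values are on a log scale, taken as log2 from their size, and were used as they are. The version of MAS5 is not given in the sources used here. Gene symbols are those of the platform annotation, in which 34945 of 45101 probe sets have 1 symbol and 64 are controls. The reference gene table (GRCm38.p6) changed 0 symbols.

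The S3 against S1 comparison used limma (version 3.58.1, in R 4.3.3), a two-sided moderated linear model with a mean-variance trend, 4 residual and 3.41 prior degrees of freedom, on the brightest probe set per gene with a mean above the 40th percentile of non-control probe sets, or 11959 genes, with Benjamini-Hochberg adjustment over all and a threshold of 0.05. The code was tested on simulated arrays. Precision is limited by having 3 arrays a group. The alternatives, 15 in all, were median centring, quantile normalization, no filter, a 60th percentile filter, no trend, the mean of a gene's probe sets, the kind of array as a block (actin 5' minus 3' under or over -1.5), the replicate number as a block, values raised to background, and leaving out each array.

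The members, lists, marker lists and alternatives were chosen with earlier results of these data known. Named genes are the members, up to 3 called genes with the smallest p per pathway list (2 where none was called), and the 5 genes most correlated with each tested member. Cxcl12 had no such likeness search, being under the filter.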

Additional observations from a re-analysis of the deposited data

How the results depend on the processing

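Ackr3 was chosen for its difference, so its range over the 14 alternatives that apply to a single probe set is a description. The filters, the trend and the replicate block cannot change such a difference, and it stayed at 6.85 with them. Over all 14 the Ackr3 difference kept its sign, from 6.26 (values raised to background) to 7.19 (without S1 replicate 2). That of Cxcr4 ran from -0.62 to 1.46, and that of the Cxcl12 probe set 1448823_at fell to 0.53 with values raised to background. The 1835 genes and 16 pathway genes called became 5617 and 38 with the kind of array as a block, and 1004 and 5 with the mean over probe sets. Leaving out single arrays gave 677 to 1636 genes and 6 to 18 pathway genes, with 951, 794, 677 and 755 genes without S3 replicate 1, S3 replicate 3, S1 replicate 1 and S1 replicate 2. Of called genes, 16.5% were higher in S3 at the deposited scale, 33.0% with median centring and 38.2% with quantile normalization. With the replicate block, 2309 genes and 23 pathway genes were called. Deviations of same-numbered arrays correlated at -0.192, 0.364 and 0.432, so the numbers were not taken as pairs. Of 20 named genes called, 7 kept their call in every alternative, and 13 lost it in at least 1. These genes were picked for a small p or for their likeness to Ackr3, which favours calls, so the tally is a description. The mean over probe sets ended the calls of Calcrl, Grk5, Vav1, Ptk2b, Gnb4, Nr3c1, Yy1, Hif1a, Itga5 and Cgn. Among named genes not called, 8 calls were gained, 5 for Ppbp and 3 for Pf4. Signs turned for Mif (0.44, mean over probe sets), for Arc with values raised to background (0.00), and without S1 replicate 2 for Arc, 4930542N06Rik, Ppfia3, Rhox9 and 1700073E17Rik. Leaving out single arrays gave -0.39 to 1.13 for Arc, -0.29 to 1.18 for 4930542N06Rik, -0.65 to 0.75 for Ppfia3, -0.30 to 0.46 for Rhox9 and -0.11 to 0.40 for 1700073E17Rik, none of them called. The causes of these changes were not tested. Signals at background limit what can be said of Cxcr4 and Cxcl12.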
